A study of Mus musculus with 20 samples.

Results

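The genes described here are 10 components of the signaling pathway from cytokine receptors through JAK kinases to the transcription factor STAT5. They are the kinase genes Jak1 and Jak3, the transcription factor genes Stat5a and Stat5b, the inhibitor genes Socs1, Socs2, Socs3 and Cish, and the target genes Pim1 and Pim2. They were chosen by name as members of the pathway, out of 25246 genes listed in the count tables once mitochondrial genes and spike-ins were set aside. Of the 20 libraries, 20 listed 8 of the members, while Socs2 was listed in 18 and Socs3 in 19, and a member that a library did not list was taken as 0 there.

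The cells were thymic precursors of intraepithelial lymphocytes (IELPs), sorted one by one as CD4-CD8- thymocytes with a TCR beta chain and without NK1.1. The paper calls them NK1.1-, whereas the design text deposited with the series calls them NK1.1+, and the paper is followed. They are taken here as coming from 3 mice, 1 for each genotype. Legends of the paper name a mouse for these data, while its text also speaks of mice and gives no number of animals. The first was a TBGR mouse of 4 weeks, a wild type that carries the Tbx21 ZsGreen transgene as a fluorescent reporter of T-bet. The others were mice of 2 weeks with the same transgene, which the labels write as TBGR C-myc fl/fl or as TBGR C-myc D/DCd4 (C-myc fl/fl, C-myc D/DCd4 hereafter). The C-myc alleles are floxed and intact in the former, and in the latter a Cd4-Cre transgene deletes them in T cells from the stage at which Cd4 is turned on. Cells were sorted by CD122, the receptor chain encoded by Il2rb, and by the reporter into 4 populations. T-bet- cells were split into CD122-T-bet- and CD122+T-bet-, and CD122+ cells with reporter into T-bet int and T-bet high. Only the T-bet- populations were sorted from the C-myc D/DCd4 mouse, since the paper found IELPs with T-bet almost absent in this genotype. With 1 mouse for each genotype no difference can be tested over animals, the genotype cannot be told apart from the mouse, and the TBGR mouse differs from the others in age as well. Values are therefore given for each library with the spread between libraries. This spread covers technical variation and the different cells of each library, but not animals. In the TBGR and C-myc D/DCd4 mice each library held 1 population, so differences between populations are also differences between libraries. The same holds for the C-myc fl/fl step from CD122+T-bet- to T-bet int, whose sides came from separate libraries. Only the other C-myc fl/fl steps compare populations within libraries.

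Cytokines of the common gamma chain family, among them IL-2, IL-7 and IL-15, bind receptors whose chains carry JAK1 and JAK3. The kinases phosphorylate STAT5, which moves into the nucleus and turns on survival genes together with genes of its own inhibitors, so that CIS (encoded by Cish) and the SOCS proteins act back on the receptor complex. IL-15 signals through CD122 and is known as a cytokine on which CD8alpha alpha+ intraepithelial lymphocytes and their precursors depend.

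Of 1920 sorted wells, 1413 held at least 2000 transcripts and were kept, 678 of 768 in the TBGR, 470 of 768 in the C-myc fl/fl and 265 of 384 in the C-myc D/DCd4 mouse. The median per kept cell lay between 3298 and 7809.5 transcripts over the 28 combinations of library and population. Transcripts were summed over the cells of a library or population and are given per 1000000 transcripts (CPM). The marker Il2rb stood at 2.61 to 9.88 CPM in the CD122- and at 222 to 515 CPM in the CD122+ populations, and Tbx21, the gene of T-bet, at 18.8 to 165 CPM in the T-bet int and T-bet high and at most 6.60 CPM in the T-bet- populations. The 5 T lineage markers measured (of 6 chosen) were detected in every population, and the 4 markers of gamma delta T cells pooled to 299 to 841 CPM. Myc, the deleted gene, stood at 13.95 to 63.0 CPM in CD122-T-bet- libraries of the C-myc fl/fl mouse (pooled 42.0) and at 16.7 and 30.01 CPM in those of the C-myc D/DCd4 mouse (pooled 24.8). With CD122, T-bet- libraries held 73.8, 125, 135 and 10.6 CPM (pooled 99.0) and 44.5 and 9.96 CPM (pooled 25.1), so the libraries of the genotypes overlapped in both populations. In CD122+ cells this overlap came from the fourth C-myc fl/fl library alone, which held 1 Myc transcript in 22 cells. Without it the C-myc fl/fl libraries held 73.8 to 135 CPM and lay above both C-myc D/DCd4 libraries. Elsewhere Myc pooled to 13.3, 53.8, 68.1 and 44.0 CPM along the TBGR populations from CD122-T-bet- to T-bet high, and among C-myc fl/fl cells to 72.9 CPM in T-bet int and 64.3 CPM in T-bet high. The position of the deleted exons is not given in the sources used here, and the assay reads the 3' end of a transcript, so remaining Myc counts do not show intact transcripts. The fourth T-bet- library of the C-myc fl/fl mouse stood apart, with 22 and 26 kept cells and the lowest summed T lineage markers of its groups (848 and 997 CPM against 1236 to 1624 CPM in the other 3). The second T-bet high library of the TBGR mouse had 55 kept cells against 92 in the first. Its CD4+CD8+ thymocyte markers summed to 240 against 65.8 CPM, through Rag1 (137 CPM, 32 transcripts in 3 cells) and Dntt (77.1 CPM, 18 transcripts in 1 cell), whereas Cd4 and Cd8a were at 8.57 CPM each against 27.6 and 31.8 CPM in the first. Results that rest on these libraries are given with and without them.

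Promoter sequences are shown because Cish, Socs3, Pim1 and Pim2 were called higher at the CD122 step of the TBGR mouse described below. STAT5 dimers are known to bind TTCNNNGAA, a palindrome that reads the same on both strands. RefSeq (GRCm38.p6) windows from 250 bases before to 50 bases after the annotated start were at hand for 9 of the 10 members, all but Socs2, in 12 windows. The motif was found in 2 of these 12 windows, those of Cish and Socs3, against 8.30% of the 32851 windows of all genes. The Cish window held 2 matches, at bases 1 to 9 and 12 to 20 counted from the annotated start, and 0.457% of all windows held 2 or more. The Socs3 match lay at bases -154 to -146. Both windows of Pim1 and the window of Pim2 held 0 matches. A match is a description of the letters and no evidence of binding, and a window without a match says nothing of STAT5 elsewhere. The windows are printed from 250 bases before to 20 bases after the start, in the direction of transcription, for Cish at chr9:107296409-107296678 on the plus strand, Socs3 at chr11:117969347-117969616 on the minus strand and, as a member without a match, Pim2 at chrX:7878056-7878325 on the plus strand, with the motif in capitals.
Cish: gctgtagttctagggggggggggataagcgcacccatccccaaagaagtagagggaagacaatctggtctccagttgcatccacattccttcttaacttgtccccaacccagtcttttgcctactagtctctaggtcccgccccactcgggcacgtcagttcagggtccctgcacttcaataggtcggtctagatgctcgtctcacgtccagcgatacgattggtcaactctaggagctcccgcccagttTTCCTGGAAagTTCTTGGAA
Socs3: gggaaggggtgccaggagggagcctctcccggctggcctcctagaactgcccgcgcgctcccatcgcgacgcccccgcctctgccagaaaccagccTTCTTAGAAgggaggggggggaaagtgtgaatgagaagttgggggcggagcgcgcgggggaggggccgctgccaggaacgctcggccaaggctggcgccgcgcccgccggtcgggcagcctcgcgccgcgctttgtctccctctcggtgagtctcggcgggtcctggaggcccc
Pim2: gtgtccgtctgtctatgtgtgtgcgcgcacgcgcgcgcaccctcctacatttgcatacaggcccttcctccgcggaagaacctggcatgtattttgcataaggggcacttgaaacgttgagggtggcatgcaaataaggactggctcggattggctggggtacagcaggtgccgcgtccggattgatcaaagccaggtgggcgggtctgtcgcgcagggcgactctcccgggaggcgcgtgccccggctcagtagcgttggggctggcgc

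**Figure D1:**
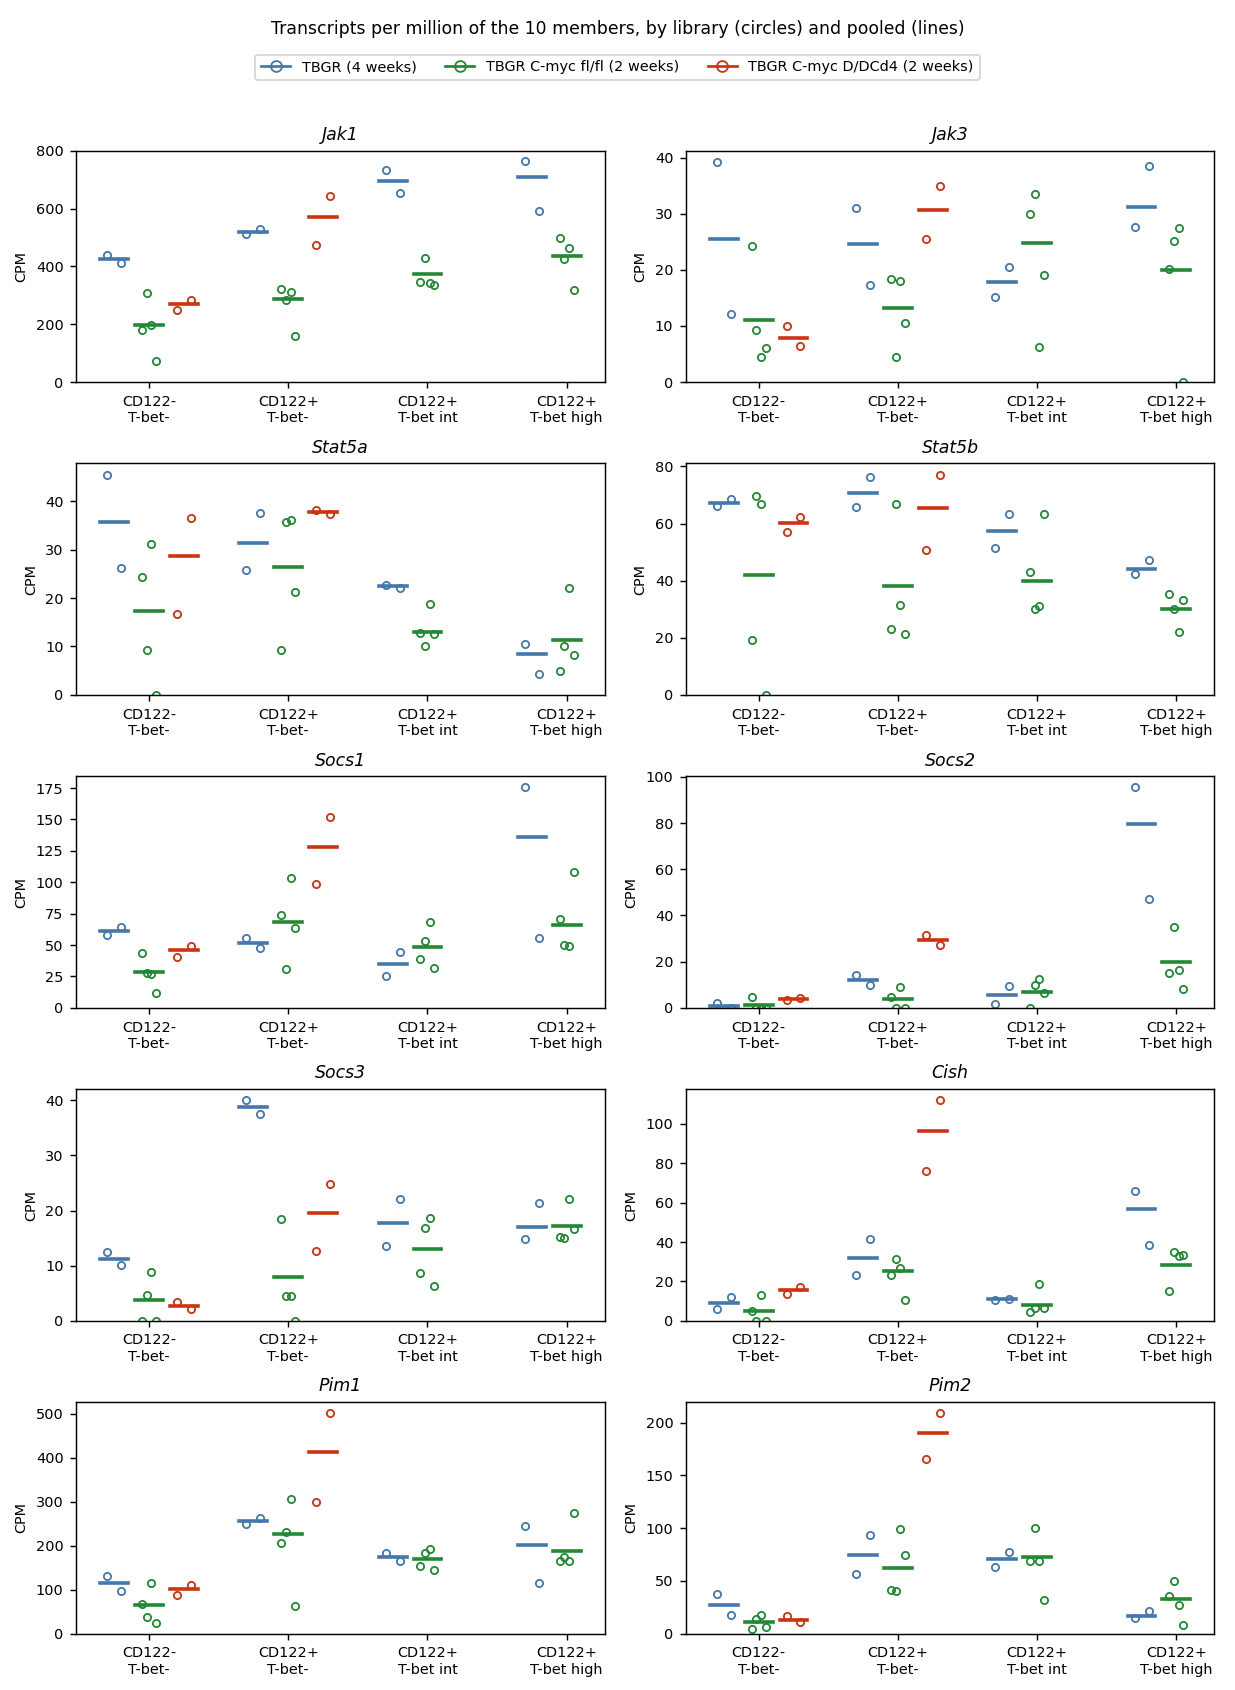
Level of each member in CPM (vertical axes, linear and starting at 0, with a scale for each gene) in the sorted populations (horizontal axes). Circles are libraries and short lines the pooled value of a population, coloured by mouse. Cish, Pim1 and Pim2 lie lowest in CD122-T-bet- cells of the 2-week mice, and in T-bet high cells Pim2 lies lower, and Cish and Socs2 higher, than in T-bet int cells.

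Jak1, the kinase shared by the receptors of this cytokine family, had the most transcripts counted of the members. In TBGR cells its libraries stood at 440 and 411 CPM in CD122-T-bet-, 511 and 530 in CD122+T-bet-, 732 and 655 in T-bet int and 766 and 591 in T-bet high cells. The first 3 populations were ordered without overlap between libraries, and T-bet int and T-bet high overlapped. C-myc fl/fl libraries stood at 179, 307, 196 and 73.2 CPM in CD122-T-bet-, 323, 285, 311 and 159 in CD122+T-bet-, 347, 429, 342 and 335 in T-bet int and 499, 426, 462 and 317 CPM in T-bet high cells. The pooled level of this mouse had the same order of populations, from 196 to 437 CPM, with libraries of T-bet int cells above those of CD122+T-bet- cells and overlap between the other neighbours. C-myc D/DCd4 libraries stood at 248 and 285 CPM in CD122- and at 473 and 645 CPM in CD122+ cells, without overlap.

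Jak3, the kinase bound by the common gamma chain, was counted at a low level everywhere. Its TBGR libraries held 39.3 and 12.1 CPM in CD122-T-bet-, 31.0 and 17.3 in CD122+T-bet-, 15.2 and 20.6 in T-bet int and 27.6 and 38.6 CPM in T-bet high cells. Values of 1 population spread as far as values of different ones, so no order can be read except that both T-bet high libraries lay above both T-bet int libraries. In C-myc fl/fl libraries, Jak3 ranged from 4.45 to 24.2 CPM among CD122-T-bet- cells, and with CD122 from 4.45 to 18.4 CPM in T-bet-, 6.22 to 33.5 in T-bet int and 0 to 27.5 CPM in T-bet high cells. The C-myc D/DCd4 mouse was the exception among the CD122 steps, with 10.04 and 6.43 CPM in CD122- and 25.4 and 34.8 CPM in CD122+ libraries. Over the 280 values of a member in a library and population, 15 were 0, and at the depth of those libraries 0 transcripts allows up to 6.04 to 31.8 CPM, counting error alone.

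Stat5a and Stat5b encode closely related proteins from neighbouring genes on chromosome 11. Reads that matched several loci were discarded by the authors, so counts of sequence that they share may be missing. In the TBGR mouse Stat5a libraries stood at 45.5 and 26.2 CPM in CD122-T-bet-, 25.8 and 37.5 in CD122+T-bet-, 22.7 and 22.1 in T-bet int and 10.6 and 4.28 CPM in T-bet high cells. Stat5a was thus lowest in T-bet high cells, below both T-bet int libraries, which in turn lay below both CD122+T-bet- libraries. Stat5b stood at 66.1 and 68.5, 65.8 and 76.4, 51.5 and 63.2, and 42.4 and 47.1 CPM in these populations in the same order, and it too was lowest in T-bet high cells. The C-myc fl/fl libraries overlapped between all 4 populations, from 0 to 36.1 CPM for Stat5a and from 0 to 69.8 CPM for Stat5b. Both genes were at 0 in the fourth CD122-T-bet- library, the one named above. In C-myc D/DCd4 cells Stat5a stood at 16.7 and 36.4 CPM in CD122- and 38.1 and 37.3 CPM in CD122+ libraries, and Stat5b at 56.9 and 62.2 and at 50.8 and 77.2 CPM.

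Cish, the inhibitor known as an early transcriptional target of STAT5, alternated along the populations. TBGR libraries held 6.20 and 12.1 CPM in CD122-T-bet-, 23.2 and 41.8 in CD122+T-bet-, 10.6 and 11.1 in T-bet int and 65.8 and 38.6 CPM in T-bet high cells. The T-bet high and CD122+T-bet- libraries overlapped with each other and lay above those of the other populations, which also overlapped. The same alternation appeared in the pooled level of C-myc fl/fl cells, 4.94 CPM (95% exact Poisson interval 1.35 to 12.6), 25.1 (15.1 to 39.2), 8.23 (3.31 to 17.0) and 28.6 CPM (17.5 to 44.1). Its libraries held 4.85, 0, 13.3 and 0 CPM, then 23.0, 31.2, 27.1 and 10.6, then 4.29, 6.70, 18.7 and 6.33, and then 15.1, 35.1, 33.0 and 33.4 CPM, with overlap at every step. The highest libraries of all were those of CD122+T-bet- cells of the C-myc D/DCd4 mouse, at 76.2 and 112 CPM, while its CD122- libraries held 13.4 and 17.1 CPM.

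Socs1, which blocks the catalytic activity of JAK kinases, was spread more evenly. In the TBGR mouse it stood at 57.9 and 64.4 CPM in CD122-T-bet-, 55.5 and 47.6 in CD122+T-bet-, 25.8 and 44.3 in T-bet int and 176 and 55.7 CPM in T-bet high cells. The T-bet high libraries differed by far from each other, and the second of them, the shallower library named above, lay within the range of the CD122- and CD122+T-bet- libraries. C-myc fl/fl libraries held 12.2 to 43.6, 31.2 to 104, 31.6 to 68.4 and 49.5 to 108 CPM in the 4 populations, all of which overlapped with a neighbour. The C-myc D/DCd4 libraries did not overlap, at 40.1 and 49.3 CPM in CD122- and 98.5 and 152 CPM in CD122+ cells.

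Socs2, best known as an inhibitor of growth hormone signaling, was highest in the TBGR mouse in T-bet high cells, and at or near the limit of detection in CD122-T-bet- cells of every mouse. TBGR libraries held 1 and 0 transcripts in CD122-T-bet- (2.07 and 0 CPM), 14.2 and 10.1 CPM in CD122+T-bet-, 1.52 and 9.49 in T-bet int and 95.5 and 47.1 CPM in T-bet high cells. Both T-bet high libraries lay above all other libraries of this mouse. In C-myc fl/fl cells the pooled level was 1.23 CPM (0.0313 to 6.88), 3.96 (0.817 to 11.6), 7.05 (2.59 to 15.4) and 20.01 CPM (10.9 to 33.6) along the populations, from 1, 3, 6 and 14 transcripts. The libraries of the C-myc D/DCd4 mouse held 3.35 and 4.29 CPM in CD122- and 31.8 and 27.4 CPM in CD122+T-bet- cells.

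Socs3, which mainly restrains cytokines of the IL-6 family, had its highest values, 40.0 and 37.5 CPM, among CD122+T-bet- libraries of the TBGR mouse. The other TBGR libraries held 12.4 and 10.1 CPM in CD122-T-bet-, 13.6 and 22.1 in T-bet int and 14.9 and 21.4 CPM in T-bet high cells. In C-myc fl/fl cells the order was another, with pooled levels of 3.70 CPM (0.764 to 10.8), 7.92 (2.91 to 17.2), 12.9 (6.46 to 23.1) and 17.2 CPM (8.86 to 29.96) from CD122-T-bet- to T-bet high. These intervals overlap between neighbours, and the sums behind them are 3 to 12 transcripts. C-myc D/DCd4 libraries held 3.35 and 2.14 CPM in CD122- and 12.7 and 24.9 CPM in CD122+ cells.

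Pim1, a serine/threonine kinase that favours survival and growth, was lowest in the CD122-T-bet- cells of every mouse. TBGR libraries stood at 132 and 96.7 CPM there, 250 and 262 in CD122+T-bet-, 183 and 166 in T-bet int and 244 and 116 CPM in T-bet high cells. The second T-bet high library again lay lower than the first, among the CD122- libraries. C-myc fl/fl libraries held 67.9, 37.2, 116 and 24.4 CPM in CD122-T-bet-, 207, 232, 307 and 63.6 in CD122+T-bet-, 154, 184, 193 and 146 in T-bet int and 166, 175, 165 and 275 CPM in T-bet high cells. The fourth T-bet- library was the lowest in both of its populations. The C-myc D/DCd4 libraries stood at 87.0 and 111 CPM in CD122- and at 299 and 503 CPM in CD122+ cells.

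Pim2, a kinase of the same family, was high in the middle of the sequence and low at both ends. In TBGR libraries it stood at 37.2 and 18.1 CPM in CD122-T-bet-, 56.8 and 93.7 in CD122+T-bet-, 63.6 and 77.5 in T-bet int and 14.9 and 21.4 CPM in T-bet high cells. The libraries of the middle populations lay above those of the outer ones. C-myc fl/fl libraries held 4.85, 14.0, 17.8 and 6.10 CPM, then 41.5, 40.1, 99.2 and 74.3, then 68.6, 100.4, 68.4 and 31.6, and then 35.3, 50.1, 27.5 and 8.34 CPM. CD122-T-bet- libraries lay below all those of CD122+T-bet- and T-bet int cells, and the T-bet high libraries overlapped with each of the other populations. The CD122+T-bet- libraries of the C-myc D/DCd4 mouse were the highest of all, at 165 and 209 CPM, against 16.7 and 10.7 CPM in its CD122- libraries.

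Which members change as CD122 appears on T-bet- cells was asked in each mouse. A gene was called when its pooled level differed at least 2-fold and its libraries did not overlap, among genes with at least 20 transcripts in both groups together. Non-overlap is met more easily with 2 libraries in each group than with 4, so the numbers called are not comparable between mice. Log2 ratios were taken after 0.5 transcripts were added to each sum, and their intervals (95%, exact, conditional on the summed transcripts) cover counting error alone. The intervals take transcripts as independent, also those of the same cell. The TBGR mouse had 4 of 9 members tested called higher in CD122+T-bet- cells and 0 lower, where 14.3% of 9262 genes were called higher and 3.92% lower. These were Socs3, with a log2 ratio of 1.74 (0.84 to 2.87), Cish with 1.74 (0.76 to 3.02), Pim2 with 1.41 (0.81 to 2.10) and Pim1 with 1.16 (0.86 to 1.48). The median over the 10 members was 0.72 and that over all genes tested 0.26. Jak1 stood at 0.29 (0.12 to 0.47) with libraries that did not overlap, and Jak3, Stat5a, Stat5b and Socs1 had ratios between -0.24 and 0.07 with intervals that include 0. Socs2 fell short of 20 transcripts, with 18 against 1 and a log2 ratio of 3.04 (0.92 to 8.97).

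All genes with at least 100 transcripts in this comparison had a median log2 ratio of 0.28. Relative to it, Socs3 and Cish stood at 1.46, Pim2 at 1.13, Pim1 at 0.88, which is under 2-fold, and Jak1 at 0.01, and the share of calls that were higher fell from 78.5% to 57.4%. Without the second CD122-T-bet- library Pim1 and Pim2 stood at 0.94 and 0.96, also under 2-fold, although their direction held. Markers of other cells moved with this step. The 3 NKT cell markers summed to 97.2 and 76.5 CPM in CD122- and 182 and 193 CPM in CD122+ libraries. The 6 markers of CD4+CD8+ thymocytes summed to 775 and 638 CPM in CD122- and 120 and 92.3 CPM in CD122+ libraries, with Rag1 and Rag2 at 0 in the latter. Most of this sum was Cd4 alone, which pooled to 585 of 706 CPM without and 59.9 of 107 CPM with CD122. The 3 markers of regulatory T cells summed to 55.8 and 2.01 CPM in CD122- and to 29.7 and 148 CPM in CD122+ libraries. The 3 myeloid or dendritic markers measured (of 4 chosen) pooled to 87.7 CPM without and 216 CPM with CD122, with Itgax at 0 in both. The same 4 members were called when cells with a transcript of Foxp3 or of a B cell marker were removed, which took out 56 of 186 CD122+ and 10 of 174 CD122- cells. The part of the NKT, myeloid and CD4+CD8+ thymocyte markers was not tested.

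In the C-myc fl/fl mouse 1 of 7 members tested was called higher and 0 lower, where 5.39% of 6790 genes were called higher and 0.928% lower. It was Pim2, with a log2 ratio of 2.42 (1.44 to 3.70). Pim1 at 1.80 (1.36 to 2.29), Cish at 2.21 (0.76 to 4.36) and Socs1 at 1.26 (0.54 to 2.05) exceeded 2-fold but had libraries that overlapped. Here each library held cells of both populations, and within libraries the ratio was above 0 in 4 of 4 for these 4 genes, with medians of 2.47 for Pim2, 1.48 for Pim1, 2.09 for Cish and 1.30 for Socs1. Taken with the library as a block in this way, 4 members had a median of at least 2-fold in 1 direction in 4 of 4 libraries, where 10.9% of genes did so upward and 1.8% downward. The lowest within-library ratios were 1.38 for Pim2, 1.33 for Pim1, 0.91 for Cish and 0.14 for Socs1. The remaining 6 members had ratios of either sign within libraries. Their pooled ratios were 0.55 (0.25 to 0.86) for Jak1, 0.24 (-1.204 to 1.73) for Jak3, 0.60 (-0.45 to 1.71) for Stat5a, -0.13 (-0.90 to 0.63) for Stat5b, 1.32 (-1.96 to 7.40) for Socs2 and 0.99 (-1.13 to 3.72) for Socs3. Of these, Jak3, Socs2 and Socs3 had under 20 transcripts.

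The median log2 ratio of all genes was 0.55 in this comparison, the largest such shift. Relative to it Pim2 stood at 1.87, Cish at 1.67, Pim1 at 1.26, Socs1 at 0.71 and Jak1 at 0.00, and the share of calls that were higher fell from 85.3% to 32.1%. Without the fourth library, Cish (2.00) and Pim1 (1.73) joined Pim2 among the calls, and without the first or second library Socs1 did (1.49 and 1.54). Regulatory T cell markers stood at 18.3 to 89.0 CPM without and 0 to 85.7 CPM with CD122. Markers of CD4+CD8+ thymocytes again moved with the step, from 204 to 311 CPM in CD122- to 0 to 44.5 CPM in CD122+ libraries, with Rag1, Rag2 and Dntt at 0 in the latter. NKT cell markers stood at 23.3 to 112 CPM without and 94.7 to 134 CPM with CD122, and the part of these lists in the ratios was not tested.

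The C-myc D/DCd4 mouse had 7 of 9 members tested called higher in CD122+T-bet- cells and 0 lower, where 13.4% of 7425 genes were called higher and 7.84% lower. Pim2 had a log2 ratio of 3.80 (2.94 to 4.95), Socs2 2.71 (1.16 to 5.29), Cish 2.57 (1.72 to 3.64) and Pim1 2.01 (1.65 to 2.40). The 21 Socs2 transcripts of CD122+ cells lay in 10 of 137 cells, with up to 6 in a cell. Jak3 at 1.89 (0.62 to 3.56), Socs1 at 1.48 (0.91 to 2.09) and Jak1 at 1.07 (0.83 to 1.32) were called as well. Both STAT5 genes were not, with 0.38 (-0.48 to 1.27) for Stat5a and 0.13 (-0.49 to 0.74) for Stat5b, and Socs3 had too few transcripts, 14 against 2. The median over the members was 1.95 and that over all genes tested 0.13, and the shift of all genes was 0.05.

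Without the second CD122+ library of this mouse 4 members remained called, Socs1, Cish, Pim1 and Pim2, since Jak1 came to 0.81 and Jak3 and Socs2 had under 20 transcripts. Jak1 also came under 2-fold without the first CD122- library (0.99), and with every cell rescaled to 2000 transcripts (0.94). That second CD122+ library held 194 CPM of B cell markers against 12.7 CPM in the first. After cells with a Foxp3 or B cell marker transcript were removed, 17 of 137 CD122+ and 9 of 128 CD122- cells, the same 7 members were called. CD4+CD8+ thymocyte markers stood at 542 and 362 CPM in CD122- and 102 and 97.1 CPM in CD122+ libraries. The T lineage markers stood at 1696 and 1785 against 2306 and 2706 CPM. The NKT cell markers stood at 137 and 107 against 162 and 229 CPM. Of the 3 myeloid or dendritic markers measured, only 1 was detected, as Csf1r and Itgax had no transcripts in either population. That marker stood at 33.5 and 42.9 against 60.3 and 74.7 CPM. In each of these cases the libraries did not overlap. The part of these lists was not tested.

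**Figure D2:**
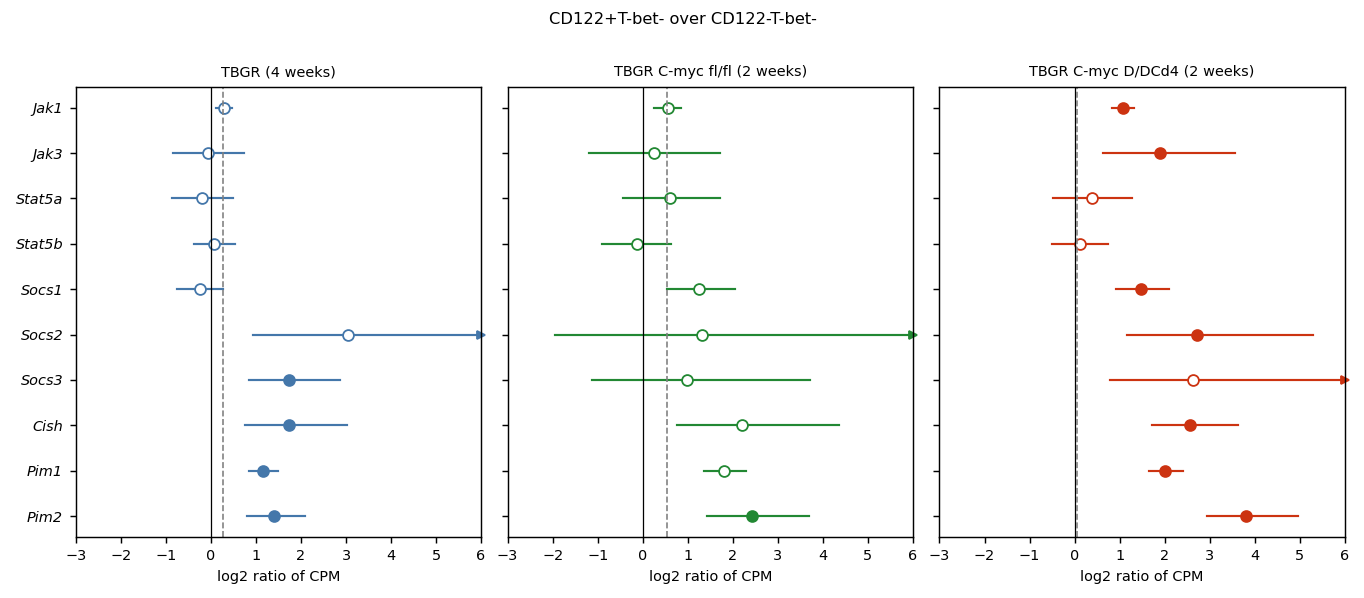
Log2 ratio of CPM (horizontal axes) of T-bet- cells with CD122 over those without for each member in the 3 mice. Points are pooled ratios, filled where the gene was called, bars are 95% exact intervals for counting error with arrows where they run past the axis, the black line is 0 and the dashed line the median of all genes. Points of Pim2, Cish, Pim1, Jak1, Socs2 and Socs3 lie to the right of 0 in every mouse. Intervals of Socs2 and Socs3 include 0 in the C-myc fl/fl mouse, and those of Stat5a and Stat5b do in every mouse.

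The next step is the appearance of T-bet at an intermediate level in CD122+ cells. Successive steps share the libraries of the population between them, so their ratios are not independent. In TBGR cells 3 of 10 members were called lower in T-bet int than in CD122+T-bet- cells and 0 higher, where 6.94% of 9461 genes were called lower and 3.49% higher. All 3 were inhibitors, Cish with a log2 ratio of -1.53 (-2.54 to -0.68), Socs2 with -1.12 (-2.68 to 0.15) and Socs3 with -1.11 (-1.89 to -0.40). The 18 Socs2 transcripts of CD122+T-bet- cells lay in 8 of 186 cells, with up to 6 in a cell. Socs1 at -0.56 (-1.14 to -0.02) and Pim1 at -0.55 (-0.79 to -0.31) pointed the same way by less than 2-fold, Jak1 stood at 0.42 (0.28 to 0.56), and Pim2 at -0.07 (-0.49 to 0.34). Jak3 at -0.45 (-1.28 to 0.33), Stat5a at -0.47 (-1.204 to 0.22) and Stat5b at -0.30 (-0.76 to 0.14) had intervals that include 0. The median over the members was -0.51 and that over all genes tested -0.02. Without the first T-bet int library the ratios of Socs2 (-0.29) and Socs3 (-0.77) came under 2-fold, and with every cell rescaled that of Socs3 did (-0.76). Leaving out any 1 of the 4 libraries brought Socs2 under 20 transcripts or under 2-fold. The regulatory T cell markers stood at 29.7 and 148 CPM in CD122+T-bet- and at 10.6 and 17.4 CPM in T-bet int libraries. With cells that held a Foxp3 or B cell marker transcript removed, Cish and Socs3 stayed called and Socs2, at -1.22, had too few transcripts.

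In C-myc fl/fl cells 0 of 8 members tested were called at this step, where 0.562% of 7119 genes were called higher and 0.506% lower. The ratio of Cish was -1.55 (-3.10 to -0.30) from 7 and 19 transcripts, with overlap because the third T-bet int library (18.7 CPM) and the fourth CD122+T-bet- library (10.6 CPM) crossed the rest. Without either of these libraries Cish was called, at -1.98 and -1.66. Socs3 stood at 0.66 (-0.85 to 2.43) and Socs2 at 0.73 (-1.39 to 3.46), intervals too wide to show a direction. Stat5a, at -1.001 (-2.24 to 0.10), was called without the first CD122+T-bet- library (-1.34), and Jak3, at 0.87 (-0.25 to 2.15), without the third T-bet int library (1.1). Jak1 stood at 0.37 (0.12 to 0.63), with libraries that did not overlap. Pim1 at -0.40 (-0.73 to -0.08), Socs1 at -0.51 (-1.14 to 0.11), Pim2 at 0.23 (-0.34 to 0.81) and Stat5b at 0.06 (-0.70 to 0.83) overlapped.

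The last step compares T-bet high with T-bet int cells. In the TBGR mouse 5 of 10 members were called, 3 higher and 2 lower, where 7.93% of 8564 genes were called higher and 11.7% lower. The 3 higher were the inhibitors Socs2, with a log2 ratio of 3.79 (2.74 to 5.25), Cish with 2.36 (1.48 to 3.38) and Socs1 with 1.96 (1.44 to 2.51). The 2 lower were Pim2, with -1.997 (-3.05 to -1.17), and Stat5a, with -1.31 (-2.96 to -0.10). Pim1 at 0.21 (-0.11 to 0.51), Jak1 at 0.03 (-0.13 to 0.19), Stat5b at -0.37 (-1.03 to 0.24) and Socs3 at -0.04 (-1.205 to 1.002) had intervals that include 0. Jak3, at 0.81 (-0.10 to 1.72), had libraries that did not overlap and was called without the first T-bet high library (1.16), without the second T-bet int library (1.005), or from 1.5-fold. The median over the members was 0.12 and that over all genes tested -0.09.

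The shift of all genes was -0.13 here, and relative to it Socs2 stood at 3.92, Cish at 2.49, Socs1 at 2.09, Stat5a at -1.18 and Pim2 at -1.87. On that scale 52.7% of calls were higher, against 40.4% without it. Socs1 depended on the first T-bet high library, without which it came to 0.72, and Stat5a on the second, without which it came to -0.97. Socs2 kept a log2 ratio of 3.09 without the first T-bet high library but then had under 20 transcripts. The 3 markers of NKT cells went opposite ways at this step. Their sum was 242 and 274 CPM in T-bet int and 647 and 510 CPM in T-bet high libraries, and it was higher through Klrb1c alone, while Zbtb16 stood at 28.4 against 46.4 CPM and Slamf6 at 9.93 against 172 CPM. Klrb1c, a gene of the NK1.1 molecule that the sort excluded, stood at 563 CPM (509 to 621) in T-bet high and 39.5 CPM (29.4 to 51.9) in T-bet int cells. Their part in the ratios of the members was not tested.

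In C-myc fl/fl cells 0 of 9 members tested were called at the same step, where 1.36% of 6908 genes were called higher and 2.58% lower. Within libraries, each of which held cells of both populations, 3 members moved in 1 direction in 4 of 4. Cish had a median within-library log2 ratio of 1.72 (0.72 to 2.17 over the libraries), Socs2 of 1.04 (0.31 to 3.04) and Pim2 of -1.10 (-1.48 to -0.91). By this measure 2.14% of genes reached 2-fold upward and 4.02% downward. The pooled ratios were 1.73 (0.50 to 3.28) for Cish, 1.44 (0.03 to 3.17) for Socs2 and -1.13 (-1.91 to -0.44) for Pim2. Stat5a, at -0.15 (-1.70 to 1.27), and Socs1, at 0.45 (-0.19 to 1.09), had intervals that include 0. So did Jak1 at 0.23 (-0.00038 to 0.46), Jak3 at -0.29 (-1.39 to 0.74), Stat5b at -0.40 (-1.27 to 0.41), Socs3 at 0.40 (-0.90 to 1.73) and Pim1 at 0.14 (-0.22 to 0.49).

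Relative to the shift of all genes of -0.18, the pooled ratios were 1.92 for Cish, 1.62 for Socs2 and -0.95 for Pim2, and 58.3% of calls were higher against 34.6% without it. Cish was called without the first of these libraries (1.73) and Pim2 without the fourth (-1.10). Pim2 was also called after cells with a Foxp3 or B cell marker transcript were removed (-1.52). NKT cell markers here stood at 88.6 to 154 CPM in T-bet int and 91.8 to 149 CPM in T-bet high libraries, with Klrb1c at 9.41 CPM (4.06 to 18.5) and 81.5 CPM (61.7 to 106), Zbtb16 at 49.4 and 15.7 CPM and Slamf6 at 65.8 and 18.6 CPM. Their part was not tested.

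**Figure D3:**
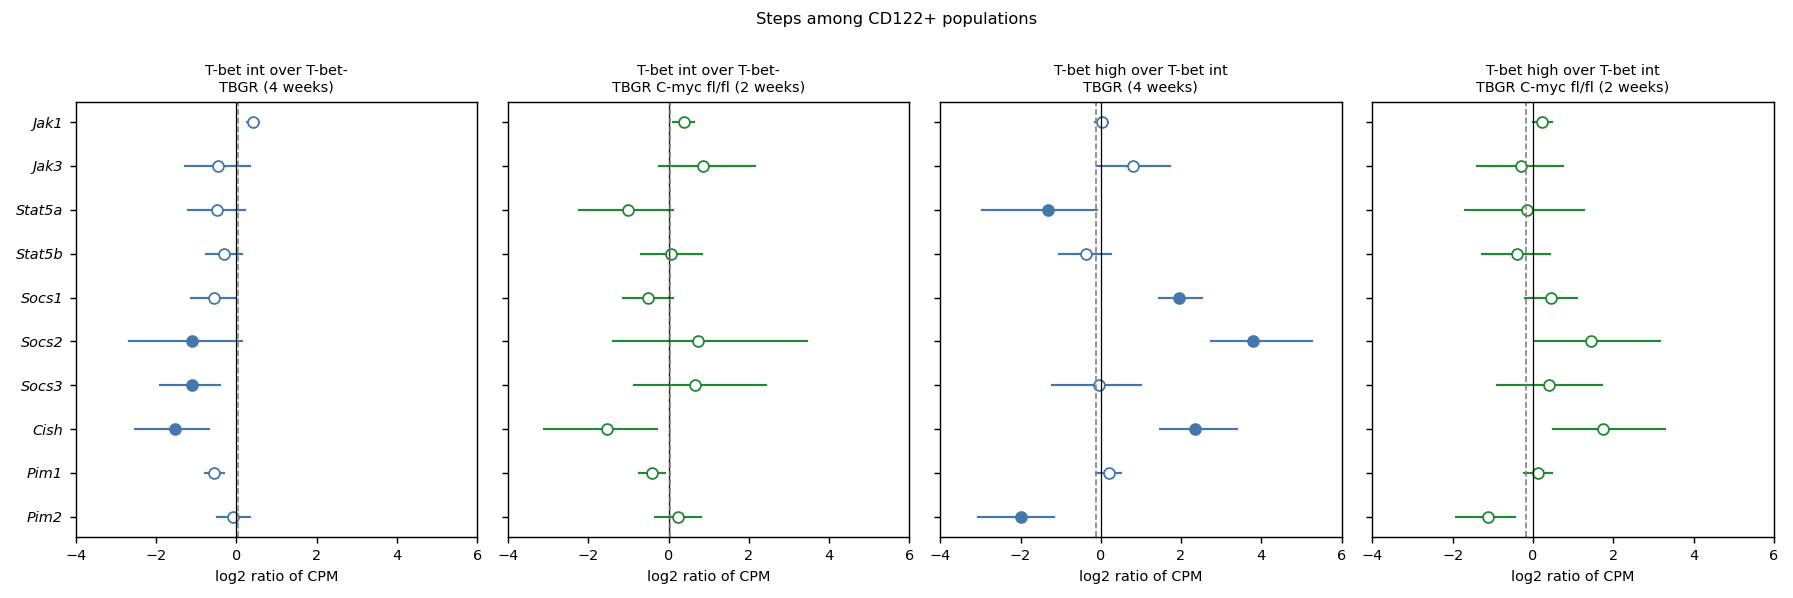
Log2 ratio of CPM (horizontal axes) for each member at the step to T-bet int (left panels) and to T-bet high (right panels) for TBGR and C-myc fl/fl. Points are pooled ratios, filled where the gene was called, bars are 95% exact intervals for counting error, the black line is 0 and the dashed line the median of all genes. Points of Cish, Socs1 and Pim1 lie left of 0 at the first step and right of it at the second in both mice. Those of Pim2, Stat5a and Stat5b lie left of 0 at the second.

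The C-myc genotypes were compared within each T-bet- population. These comparisons use the same libraries as the CD122 steps above, so they are not independent of them. In CD122+T-bet- cells 4 of 10 members were called higher in the C-myc D/DCd4 than in the C-myc fl/fl mouse and 0 lower, where 13.5% of 7312 genes were called higher and 6.13% lower. Socs2 had a log2 ratio of 2.70 (1.14 to 5.28) from 21 and 3 transcripts, Cish of 1.91 (1.19 to 2.76), Pim2 of 1.60 (1.12 to 2.12) and Jak3 of 1.18 (0.08 to 2.46). The 21 Socs2 transcripts lay in 10 of 137 cells, with up to 6 in a cell. Jak1 at 0.98 (0.74 to 1.23) had libraries that did not overlap but stayed just under 2-fold. Pim1 at 0.87 (0.60 to 1.15), Socs1 at 0.90 (0.40 to 1.42) and Stat5b at 0.77 (0.08 to 1.497) had intervals above 0 and libraries that overlapped. Stat5a at 0.50 (-0.38 to 1.42) and Socs3 at 1.24 (-0.17 to 2.97) had intervals that include 0. The median over the members was 1.08 and that over all genes tested 0.18, and the shift of all genes was 0.06.

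Cish and Pim2 were called without any 1 of the 6 libraries, and the number called ranged from 2 without the second C-myc D/DCd4 library to 7 without the first or without the third C-myc fl/fl library. Jak3 came under 2-fold without the second C-myc fl/fl library (0.82) or the second C-myc D/DCd4 library (0.96), and after cells with a Foxp3 or B cell marker transcript were removed (0.86), where Socs1 was called instead (1.08). Socs2 had under 20 transcripts without either C-myc D/DCd4 library. Other genes moved with the genotype. The 5 T lineage markers summed to 997 to 1624 CPM in C-myc fl/fl and to 2306 and 2706 CPM in C-myc D/DCd4 libraries, and the B cell markers to 0 to 18.4 CPM and to 12.7 and 194 CPM. Gamma delta T cell markers stood at 131 to 581 against 734 and 757 CPM (Trdc pooled at 9.24 against 212 CPM), NKT cell markers at 94.7 to 134 against 162 and 229 CPM, and CD4+CD8+ thymocyte markers at 0 to 44.5 against 102 and 97.1 CPM. The part of these lists in the ratios was not tested.

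In CD122-T-bet- cells 0 of 5 members tested were called, where 12.9% of 6893 genes were called higher and 1% lower in the C-myc D/DCd4 mouse. Jak1 had a log2 ratio of 0.46 (0.16 to 0.77), Pim1 of 0.66 (0.14 to 1.202), Stat5b of 0.51 (-0.15 to 1.202), Socs1 of 0.68 (-0.11 to 1.51) and Stat5a of 0.72 (-0.30 to 1.81), each with libraries that overlapped. Under the minimum of 20 transcripts were Jak3 at -0.47 (-2.27 to 1.15), Socs2 at 1.30 (-1.97 to 7.38), Socs3 at -0.40 (-4.08 to 2.62) and Pim2 at 0.23 (-1.22 to 1.71). All genes had a median of 0.45 in this comparison, and relative to it the 5 stood between 0.01 and 0.26. On that scale 58.3% of calls were higher, against 92.8% without it. Cish had libraries that did not overlap and a log2 ratio of 1.56 (-0.06 to 3.76), but 12 and 4 transcripts are under the minimum. Stat5a was called without the first C-myc D/DCd4 library (1.07) or with every cell rescaled (1.36), and Pim1 without the third C-myc fl/fl library (1.18) or with cells that held a Foxp3 or B cell marker transcript removed (1.07). Whether the genotypes differ more in CD122+ than in CD122- cells was not tested, with 1 mouse for each.

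**Figure D4:**
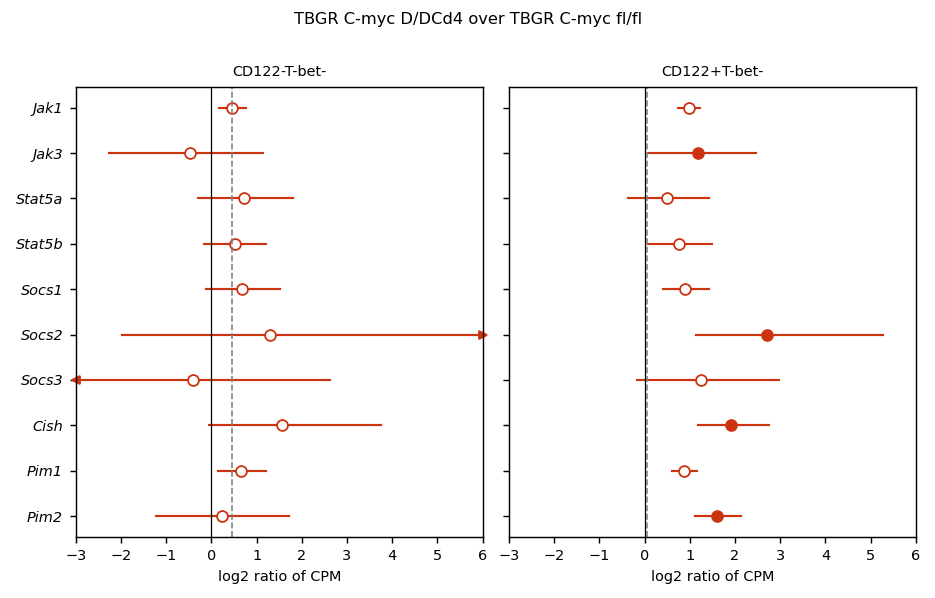
Log2 ratio of CPM (horizontal axes) of C-myc D/DCd4 over C-myc fl/fl cells for each member in CD122-T-bet- (left) and CD122+T-bet- cells (right). Points are pooled ratios, filled where the gene was called, bars are 95% exact intervals for counting error with arrows where they run past the axis, the black line is 0 and the dashed line the median of all genes. Filled points, for Jak3, Socs2, Cish and Pim2, are in the right panel alone.

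Levels pooled over cells can come from more cells with a transcript or from more transcripts in each of them. Shares of cells were computed as counted, with exact binomial intervals, and after thinning each cell to 2000 transcripts, which puts populations of different depth on the same scale. Cish was seen in 2.30% of TBGR CD122-T-bet- cells (0.630 to 5.78), 18.3% of CD122+T-bet- (13.004 to 24.6), 6.43% of T-bet int (3.25 to 11.2) and 19.7% of T-bet high cells (13.6 to 27.1). Thinning left 1.13%, 7.66%, 2.35% and 9.14%, in the same order. A TBGR cell with a Cish transcript held 1.27 to 2.25 on average and at most 4. In CD122+T-bet- cells of the C-myc D/DCd4 mouse 29.9% held Cish (22.4 to 38.3), 16.0% after thinning, and at most 9 transcripts in a cell.

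Pim1 had its transcripts in more cells and in larger numbers. It was seen in 35.1% of TBGR CD122-T-bet- and 66.7% of CD122+T-bet- cells, 18.5% and 34.7% after thinning, with 1.84 and 3.03 transcripts per cell that held it and up to 23 in 1 cell. In the C-myc D/DCd4 mouse the shares were 26.6% and 66.4%, or 13.2% and 46.5% after thinning, with 2.29 and 3.25 transcripts per positive cell. Both the share and the number per positive cell were thus higher in CD122+T-bet- cells of either mouse. Numbers per positive cell are as counted, without thinning, and the CD122+T-bet- cells were deeper. Their median was 7073.5 against 5118 transcripts in the TBGR and 4921 against 4238.5 in the C-myc D/DCd4 mouse. The part of depth in these numbers was not tested. Pim2 was seen in 36.5% of CD122+T-bet- cells of the C-myc D/DCd4 mouse with 2.72 transcripts per positive cell, against 25.4% and 1.52 in the C-myc fl/fl mouse. After thinning these shares were 23.8% and 11.8%. Socs2 was seen in 23.8% of TBGR T-bet high cells (17.2 to 31.5) and 3.51% of T-bet int cells (1.30 to 7.48), 12.3% and 0.689% after thinning. Jak1 was seen in the most cells of every population, from 57.5% to 98.2% as counted and from 31.5% to 78.0% after thinning.

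**Figure D5:**
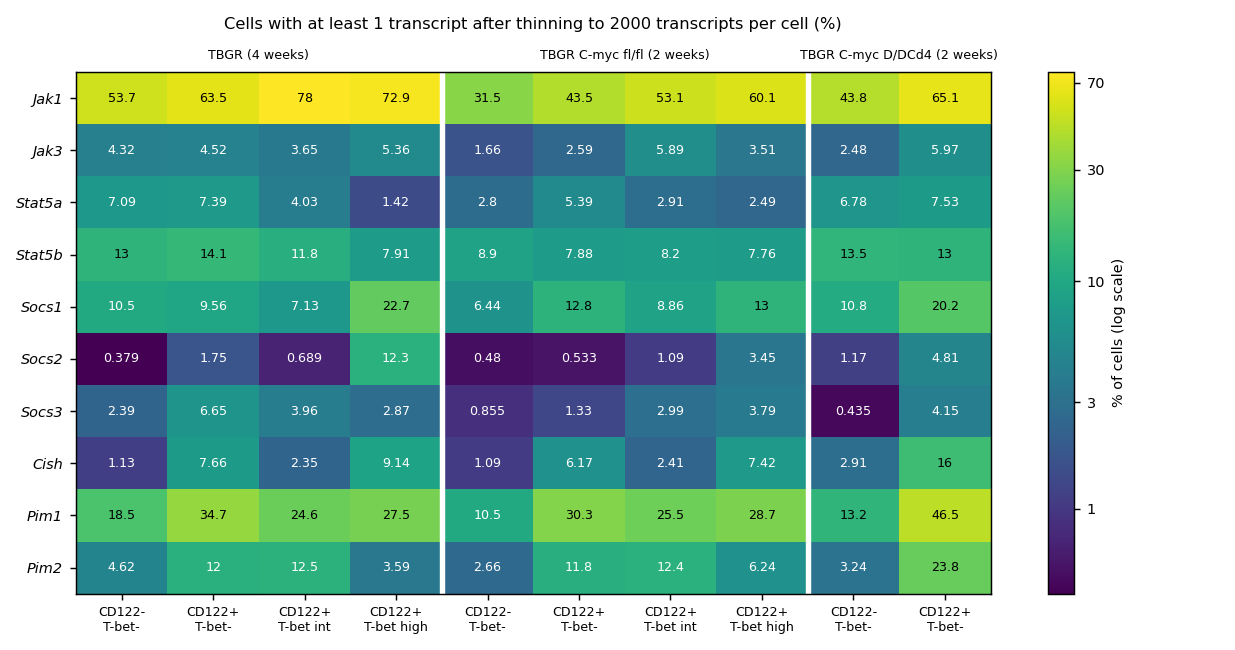
Share of cells in percent with at least 1 transcript of a member (rows) after thinning to 2000 transcripts per cell, for the sorted populations of each mouse (columns). Colour follows a log scale and the numbers are the shares. Jak1 is seen in 31.5% to 78.0% of cells, and CD122+T-bet- cells of the C-myc D/DCd4 mouse have the highest shares of Cish, Pim1 and Pim2.

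Pathway genes that are not members were taken from 4 lists with 40 genes in all. The lists are receptors of this cytokine family, other JAK and STAT genes, other negative regulators, and other genes known to respond to STAT5. At the CD122 step 7 of 35 tested were called higher and 1 lower in the TBGR mouse (14.3% and 3.92% of all genes). The C-myc fl/fl mouse had 3 of 29 called higher and 0 lower (5.39% and 0.928% of all genes), and the C-myc D/DCd4 mouse 15 of 35 higher and 1 lower (13.4% and 7.84% of all genes). Among receptors, Il2rb, the gene of the CD122 sort, was called in each mouse and is no finding. It is 1 of the genes counted as higher in each mouse, a call that the sort fixed in advance. Il2ra, the high-affinity IL-2 receptor chain, which is also 1 of the 3 regulatory T cell markers, was called in the TBGR mouse, at 18.4 against 3.06 CPM, and Il2rg, the common gamma chain, in the C-myc D/DCd4 mouse, at 490 against 223 CPM.

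Other JAK and STAT genes called at this step were Stat3 in the TBGR mouse (log2 ratio 1.11, 0.67 to 1.60) and 4 genes of 7 in the C-myc D/DCd4 mouse. The 4 were Stat3 at 1.70 (1.196 to 2.26), Stat6 at 1.63 (1.04 to 2.30), Jak2 at 1.40 (0.77 to 2.10) and Tyk2 at 1.36 (0.42 to 2.45). Negative regulators called were Cblb at 1.39, Pias3 at 3.71 (29 against 1 transcripts) and Socs5 at 1.31 in the TBGR mouse, and Ptpn6 at 1.49, Ptpn1 at 1.55, Pias3 at 1.82, Socs5 at 4.00 (22 against 1 transcripts) and Sh2b3 at 1.75 in the C-myc D/DCd4 mouse. Of genes known to respond to STAT5, Ccnd2 (2.77), which encodes cyclin D2, Bcl2 (2.24), which protects from apoptosis, Mcl1 (1.16) and Gzmb (2.61) were called higher and Ccnd3 (-1.46) lower in the C-myc D/DCd4 mouse. In the TBGR mouse Myc (1.97) was called higher and Bcl2l1 (-1.36) lower, and in the C-myc fl/fl mouse Gzmb (2.81) and Pim3 (1.68), a further Pim kinase gene, were called higher.

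At the step to T-bet int 2 of 36 tested pathway genes were called higher and 3 lower in the TBGR mouse (3.49% and 6.94% of all genes), Sh2b3 (1.09) and Gzmb (2.80) higher and Il4ra (-1.58), Pim3 (-2.30) and Il2ra (-2.14) lower, and 0 of 30 in the C-myc fl/fl mouse (0.562% higher and 0.506% lower). Pim3 fell from 51.1 to 10.1 CPM, between the same populations as Cish. At the step to T-bet high 5 of 35 were called higher in the TBGR mouse (7.93% of all genes), Il7r (1.89), the IL-7 receptor chain, Gzmb (5.86), Il4ra (1.41), Pim3 (1.79) and Bcl2l1 (1.72), and 3 of 32 in the C-myc fl/fl mouse (1.36% of all genes), Gzmb (2.79), Stat4 (1.92) and Stat2 (1.44). Of the 35 and 32 tested, 0 were called lower, against 11.7% and 2.58% of all genes. Il7r stood at 1056 CPM in T-bet high and 285 CPM in T-bet int cells of the TBGR mouse, and Pim3 at 35.5 and 10.1 CPM.

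Between the C-myc genotypes 10 of 35 tested pathway genes were called higher and 0 lower in CD122+T-bet- cells of the C-myc D/DCd4 mouse (13.5% and 6.13% of all genes). They were Ccnd2 (1.09), Bcl2 (1.74), Stat6 (2.06), Jak2 (1.39), Il4ra (1.502), Tyk2 (2.01), Stat4 (2.84), Pias4 (1.18), Socs5 (2.40) and Ccnd3 (1.30). Bcl2 stood at 1252 CPM against 374 CPM and Ccnd2 at 1486 against 698 CPM. In CD122-T-bet- cells 2 of 30 were called higher, Ccnd3 (1.64) and Stat4 (3.05), and 0 lower (12.9% and 1% of all genes).

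Genes whose levels ran most like those of a member were sought for the 4 members with the highest mean level, over the 28 library-by-population values and among 2795 genes with a mean of at least 50 CPM. The measure was Pearson's r of log2(CPM + 10), given as a description, since the values share mice, plates and an age. Jak1 ran most like Wipf1 (0.947), Selplg (0.931) and Tmem173 (0.929). For Pim1 the genes were Coro1b (0.880), Dazap2 (0.855) and Gpd2 (0.852), and for Pim2 Ubash3b (0.828), Klhdc2 (0.795) and Nfkb1 (0.789). Socs1 had weaker partners, Atp6ap1 (0.685), Pim1 itself (0.669) and Cd3e (0.663).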

How the data were processed

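Single cells of 20 libraries were measured by CEL-Seq2. The authors aligned reads with bwa (0.6.2-r126) to GENCODE VM9 transcripts, discarded reads with several loci, counted UMIs of 6 bases and deposited expected counts of transcripts, corrected for UMIs drawn more than once and not normalized between cells. The deposited values were rounded here to whole transcripts. Wells were assigned to populations, and 96 barcodes without a cell in each library set aside, by the deposited well lists. No value column of other samples was present. Cells with at least 2000 transcripts, without mitochondrial genes and spike-ins, were kept. None of them exceeded 2% of Kcnq1ot1, the limit of the study. No doublet caller was run on these sorted wells. Libraries share cell barcodes by design (90 of 190 pairs use the same 96), and no pair of libraries was identical.

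Transcripts were summed by library and population with Python 3.11.15, numpy 2.4.6, scipy 1.17.1 and pandas 2.3.3. By fold and overlap of libraries 9 comparisons were made, without p-values, since each genotype is taken as 1 mouse. Poisson, binomial and conditional intervals are exact at 95% and cover counting error alone. The calculations were tested on simulated data. Alternatives are given in the closing section. The members were named from the pathway, and they, the gene lists and the cell type markers were chosen with earlier results of these data known. All 10 members are named in every comparison, and other pathway genes are named where they were called.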

Additional observations from a re-analysis of the deposited data

Results flagged for a closer look

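Within groups of 4 libraries, 5 of 40 combinations of member and population had a library that stood apart from the rest at the 95% level of Dixon's test. For continuous normal values chance alone flags about 1 in 20, a rate that does not hold for counts near 0. Jak1 stood at 429 CPM in the second T-bet int library of the C-myc fl/fl mouse, with 347 CPM next. Cish stood at 18.7 CPM in the third T-bet int library, with 6.70 CPM next, and at 15.1 CPM in the first T-bet high library, below 33.0 CPM. Pim1 stood at 275 CPM in the fourth T-bet high library, above 175 CPM. Socs2 stood at 4.85 CPM, 1 transcript, in the first CD122-T-bet- library and at 0 in the other 3. A single value above 0 beside 3 values of 0 is always flagged, so no more is read from it.

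Socs1 had ratios of opposite sign at the CD122 step of 2 mice, and was called in neither. Its log2 ratio of T-bet- cells with CD122 over those without was -0.24 (-0.75 to 0.27) in the TBGR mouse, lower for every pairing of libraries, and 1.26 (0.54 to 2.05) in the C-myc fl/fl mouse, from 0.14 to 2.18 within its 4 libraries. The difference was not tested, and the mice differ in age and genotype.

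The 1920 barcodes without a cell held 39 transcripts of Jak1, 23 of Pim1 and 6 of Socs1, or 0.870%, 1.25% and 0.985% of those in barcodes with a cell, where all genes together held 0.538%. The other members had 0 to 3 transcripts there, with Cish and Stat5a at 0. Of the 39 Jak1 transcripts, 19 were in 1 library.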

How the results depend on the processing

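No log2 ratio of a called member changed sign under any alternative tried. Counts of called members changed by over 1.5 times as follows. At the CD122 step of the C-myc fl/fl mouse 1 member was called, and 3 with a minimum of 1000 transcripts per cell, 2 with 3000 and 4 with the library as a replicate block. At its step to T-bet high 0 were called, and 3 with the library as a block, 1 with cells rescaled to 2000 transcripts and 1 without cells holding a Foxp3 or B cell marker transcript, an alternative chosen after seeing the data. Between genotypes in CD122-T-bet- cells 0 were called, and 1 with cells rescaled, with no minimum of transcripts, or without those cells. In CD122+T-bet- cells 4 were called, and 2 with at least 50 transcripts, since fewer genes qualify. The cause of the other changes was not tested. Leaving out 1 library at a time gave 2 to 4, 1 to 2 and 4 to 6 called members at the CD122, T-bet int and T-bet high steps of the TBGR mouse, 1 to 3, 0 to 2 and 0 to 1 in the C-myc fl/fl mouse, 4 to 8 at the CD122 step of the C-myc D/DCd4 mouse, and 0 to 1 and 2 to 7 between genotypes in T-bet- cells without and with CD122. Replicate numbers pair no other libraries. A ratio with under 20 transcripts in either group has an interval over 1 log2 unit wide.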
